A study of Mus musculus with 6 samples.

Results

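The genes described here are 10 genes that mark or sustain mast cells, of 54309 genes quantified in the series. They were taken by gene symbol: the granule proteases Cma1, Mcpt4, Tpsb2, Tpsab1 and Cpa3, the receptor tyrosine kinase Kit with its ligand Kitl, the IgE receptor subunits Fcer1a and Ms4a2, and the histamine-forming enzyme Hdc. All 10 were found in all 6 libraries, and values of every transcript of a gene were summed. RNA-seq was done on the distal left sciatic nerve in C57BL/6 mice aged 6 to 8 weeks, with 3 libraries from females and 3 from males. Each library pooled tissue of 2 animals, collected 24 h after surgery on the nerve. The labels conflict on that surgery: a treatment field and the design text say axotomy for all 6 libraries, while the written procedure describes exposing the nerve with no cut. Both sexes share it, there is no unoperated group, and sex is the only contrast.

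Mast cells are tissue-resident immune cells that live in the connective tissue sheaths and the interior of peripheral nerves. They depend on KIT, which binds the stem cell factor made from Kitl by fibroblasts, endothelial cells and other stromal cells. IgE bound to its high-affinity receptor triggers release of granules that hold histamine and proteases packed on the proteoglycan serglycin. Connective tissue mast cells of the mouse store the chymases encoded by Cma1 and Mcpt4, the tryptases encoded by Tpsb2 and Tpsab1, and carboxypeptidase A3, encoded by Cpa3.

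The libraries held 55272138 to 77610593 estimated reads, and a count of 3 reads equalled at most 0.0543 CPM, the reads of a gene relative to the library total. Levels below are CPM scaled by TMM, or TPM, the deposited abundance of transcripts, where genes are compared, since TPM accounts for length. Markers of skeletal muscle summed to 1351 CPM in female 2 and 721 CPM in male 1, against 4.25 to 19.3 CPM in the other libraries. Values without female 2 and male 1 are therefore given for some results, though not for all that they move. Markers of Schwann cells summed to 7127 to 11292 CPM in females and 15366 to 20340 CPM in males. In bulk tissue, fewer mast cells and less RNA per mast cell cannot be told apart. The labels give 6 mice and 3 pools per sex, and p-values measure the spread between those pools.

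By TPM, the 10 genes formed an abundant and a scarce class. Kitl had the highest mean, 47.9 ± 5.25 TPM (SD, n = 6), followed by Hdc at 45.6 ± 13.9 TPM. The proteases came next, with Mcpt4 at 40.3 ± 13.1, Cma1 at 30.7 ± 10.1, Cpa3 at 29.4 ± 11.5 and Tpsb2 at 27.2 ± 8.14 TPM. Of these neighbours, only Mcpt4 stood above the next gene, Cma1, in 6 of 6 libraries; Kitl exceeded Hdc in 4 and Hdc exceeded Mcpt4 in 3. A gap followed, and the ranges of Tpsb2 and of the next gene, Fcer1a at 4.74 ± 1.51 TPM, did not overlap. Kit had 3.53 ± 1.06, Ms4a2 1.36 ± 0.559 and Tpsab1 1.11 ± 0.330 TPM. Among the scarce genes, Kit was above Ms4a2 in 6 of 6 libraries, but Fcer1a exceeded Kit in 3 of 6 and Ms4a2 exceeded Tpsab1 in 4 of 6. These Kit values count transcripts annotated as retained introns, such as Kit-208 at 0.901 TPM in female 1 and 1.92 TPM in male 1. The coding transcripts Kit-201 and Kit-204 together lay below Fcer1a in every library.

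**Figure D1:**
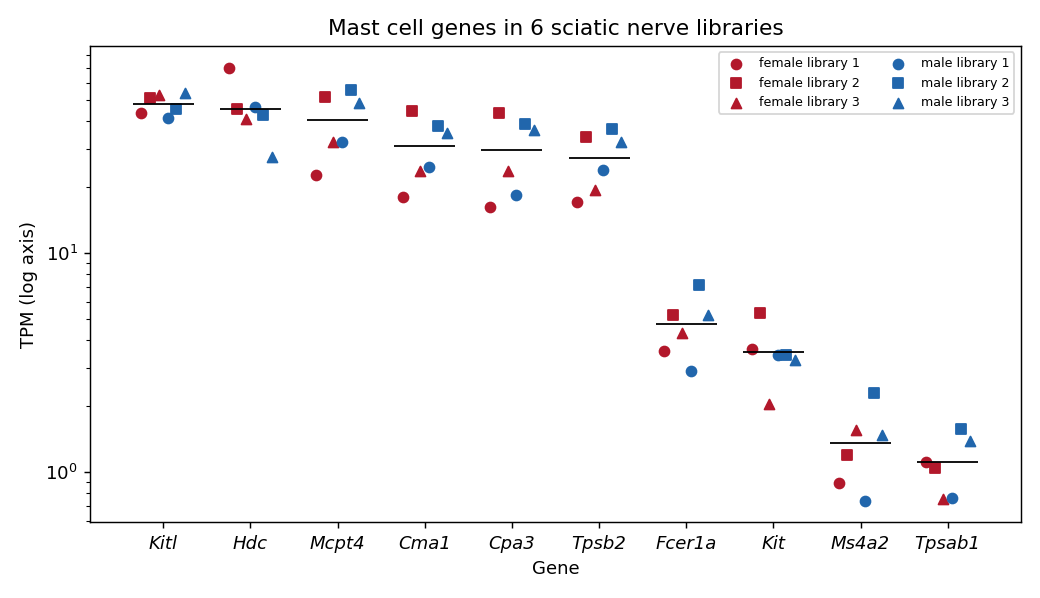
TPM of each of the 10 mast cell genes in the 6 libraries, on a log axis, with genes in order of their mean. Kitl, Hdc and 4 proteases lie at means of 27.2 to 47.9 TPM, and Fcer1a, Kit, Ms4a2 and Tpsab1 at 1.11 to 4.74 TPM.

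Cma1 encodes a mouse mast cell chymase. It stood at 11.2, 27.1 and 14.7 CPM in females 1 to 3 and at 16.5, 23.6 and 21.6 CPM in males 1 to 3. Female 2 was highest and female 1 lowest, a spread of 2.41-fold, and the males lay inside the female range. Mcpt4, the chymase with the closest functional match to the human enzyme, had 13.3, 29.6 and 18.6 CPM in females and 20.5, 32.3 and 27.7 CPM in males. Its highest library was male 2, its lowest again female 1, and the sexes overlapped. Cpa3, the exopeptidase that trims peptides such as endothelin and snake toxins, had 12.0, 30.9 and 17.2 CPM in females and 14.7, 28.5 and 25.3 CPM in males. It showed the widest spread of the proteases, 2.57-fold between female 2 and female 1.

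Tpsb2 encodes the tryptase that forms the heparin-bound tetramer of mouse mast cell granules. It had 11.1, 21.7 and 12.5 CPM in females and 16.3, 23.6 and 19.9 CPM in males, with female 1 lowest and male 2 highest. Tpsab1, its neighbour in the tryptase family, is known to carry a splice-site change in C57BL/6 mice that prevents a functional protein. It was detected at 1.09, 1.05 and 0.706 CPM in females and 0.732, 1.47 and 1.28 CPM in males, from 54 to 89 reads per library. Per length, Tpsb2 was 15.3 to 32.3 times Tpsab1 within a library. The transcript Tpsb2-203, which took 96.7% to 98.8% of Tpsb2 reads, was compared with the main Tpsab1 transcripts. It shared 80.5% identity with one over 711 aligned bases and 78.7% with another over 970, with identical runs of at most 39 bases. Reads that match both tryptases are divided between them by estimate. Their number was not counted, so how far this bears on the low Tpsab1 value is uncertain. The main transcripts of the chymases Cma1 and Mcpt4 were 73.2% identical over 805 bases, with no identical run over 27.

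The summed level of the 5 proteases was 48.7, 110.3 and 63.6 CPM in females and 68.8, 109.5 and 95.8 CPM in males. Female 2 and male 2 were alike and highest, female 1 was lowest, and the sexes overlapped. The proportions among Cma1, Mcpt4, Cpa3 and Tpsb2 varied less than the sum. Mcpt4 was 1.16 to 1.45 times Cma1 by TPM, Cpa3 0.745 to 1.02 times and Tpsb2 0.765 to 0.971 times. The mucosal mast cell chymases were at the floor: Mcpt1 and Mcpt2 had 0 reads in all 6 libraries, which allows at most 0.0543 CPM in any one, counting error only. Mcpt9 had 1 read in male 3 and 0 elsewhere. The basophil protease Mcpt8 stood at 0 to 0.0724 CPM and the basophil marker Ms4a3 at 0 to 0.039 CPM. Above these, the basophil markers Prss34 and Cd200r3 stood at 0.33 to 0.78 CPM and 0.67 to 1.28 CPM. Together the basophil markers summed to 1.28 to 1.84 CPM in females and 1.32 to 2.12 CPM in males.

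**Figure D2:**
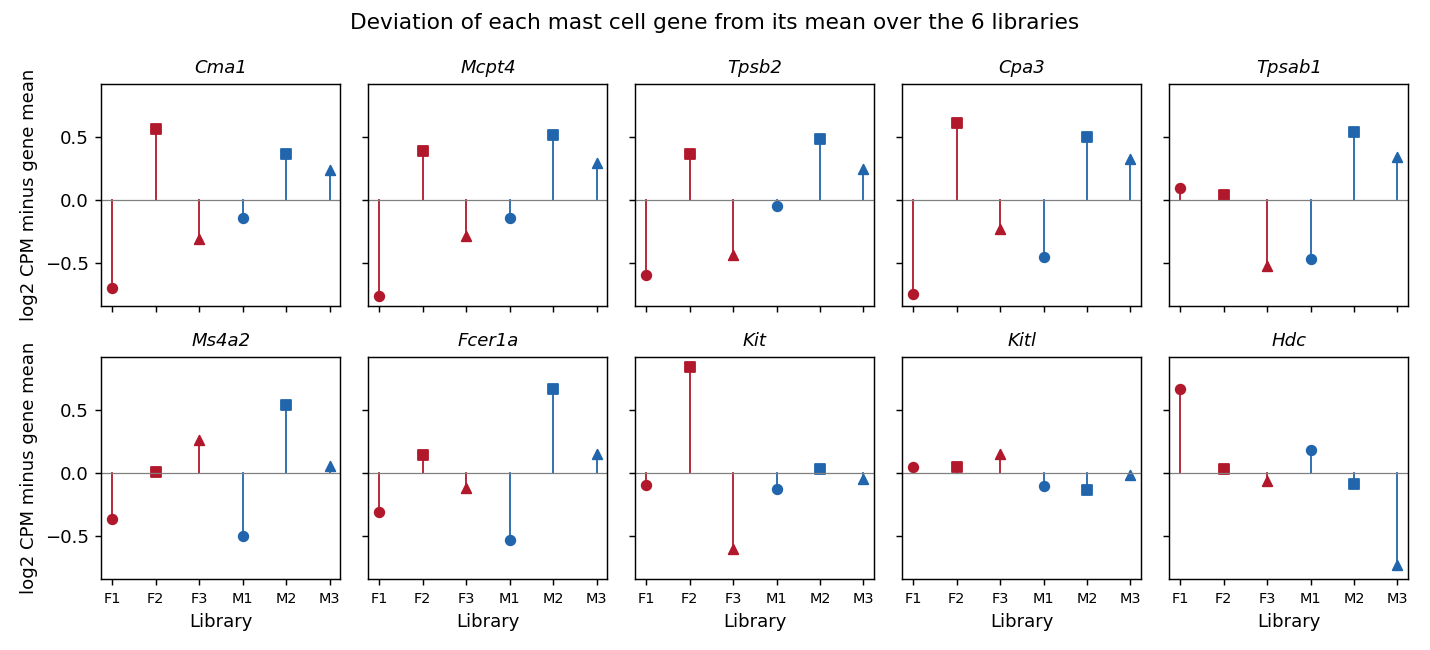
Level of each of the 10 genes in each library relative to its own mean over the 6 libraries, on a log2 scale, by role. Cma1, Mcpt4, Tpsb2 and Cpa3 share a profile that is lowest in female 1 and high in female 2 and male 2, while Hdc is highest in female 1 and lowest in male 3.

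Fcer1a encodes the alpha subunit that binds IgE. Its level was 1.60, 2.19 and 1.83 CPM in females and 1.37, 3.16 and 2.21 CPM in males, from 103 to 191 reads. Ms4a2 encodes the beta subunit, which amplifies the signal and is largely restricted to mast cells and basophils. It had 0.719, 0.930 and 1.11 CPM in females and 0.652, 1.34 and 0.959 CPM in males, from 49 to 85 reads. Both subunits were lowest in male 1 and highest in male 2, and the female values lay inside the male range for each. Per length, Ms4a2 was 0.228 to 0.361 times Fcer1a. The gamma chain, Fcer1g, which serves other myeloid receptors as well, stood far above both at 205.7 ± 31.1 CPM in the female libraries and 185.6 ± 10.1 CPM in the male libraries (SD, n = 3 each).

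Promoter sequences, from RefSeq on GRCm38.p6, were searched for GATAA, a core of the sites bound by GATA factors, because GATA1 and GATA2 are established regulators of mast cell genes. The table held a promoter for 8 of the 10 members, with none for the tryptase genes Tpsb2 and Tpsab1, so these were not searched. Within 250 bases upstream of the start, GATAA or its reverse complement TTATC occurred in those of Cma1, Mcpt4, Cpa3, Ms4a2 and Fcer1a. Counted by promoter, since Kit has 2 in the table, these were 5 of 9 (55.6%), beside 22.6% of 32851 mouse promoters of the same length. The windows were without a match in Kit, Kitl and Hdc. These counts describe letters in the sequence and no binding was measured. The promoters of 3 proteases with nearly parallel profiles are shown with that of Ms4a2, which held 3 matches. They are read 5′ to 3′ on the gene's own strand, ending 1 base before the start, with the motif in capitals on either strand. Cma1 lies at chr14:55944676-55944925, Mcpt4 at chr14:56062311-56062560, Cpa3 at chr3:20242182-20242431 and Ms4a2 at chr19:11623720-11623969, all on the minus strand.
Cma1: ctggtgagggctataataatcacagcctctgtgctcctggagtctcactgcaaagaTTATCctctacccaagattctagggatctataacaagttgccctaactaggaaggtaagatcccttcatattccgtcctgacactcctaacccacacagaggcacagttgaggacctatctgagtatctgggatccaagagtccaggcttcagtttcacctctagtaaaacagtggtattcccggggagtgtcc
Mcpt4: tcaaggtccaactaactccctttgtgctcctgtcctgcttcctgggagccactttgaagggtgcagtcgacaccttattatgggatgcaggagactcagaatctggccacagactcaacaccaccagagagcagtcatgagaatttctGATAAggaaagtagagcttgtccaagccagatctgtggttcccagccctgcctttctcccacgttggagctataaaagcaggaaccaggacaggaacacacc
Cpa3: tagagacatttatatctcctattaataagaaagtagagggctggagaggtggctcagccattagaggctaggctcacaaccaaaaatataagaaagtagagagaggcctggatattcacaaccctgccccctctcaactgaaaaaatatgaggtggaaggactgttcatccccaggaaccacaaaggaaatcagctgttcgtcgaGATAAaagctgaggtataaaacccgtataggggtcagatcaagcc
Ms4a2: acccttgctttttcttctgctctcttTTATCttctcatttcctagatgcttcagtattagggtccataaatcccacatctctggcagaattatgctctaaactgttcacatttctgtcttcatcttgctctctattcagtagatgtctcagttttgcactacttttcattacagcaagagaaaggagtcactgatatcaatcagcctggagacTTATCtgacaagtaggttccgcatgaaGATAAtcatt

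In these promoters the match of Mcpt4 and Cpa3 is on the gene's strand and that of Cma1 on the other. Of the factors themselves, Gata2 was at 3.91 ± 0.804 CPM in the female libraries and 4.67 ± 0.853 CPM in the male libraries, and Gata1 at 0.726 ± 0.315 and 0.862 ± 0.311 CPM.

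Kit encodes the stem cell factor receptor, on which mast cell survival depends. Its level was 8.68, 16.6 and 6.09 CPM in females and 8.52, 9.51 and 8.97 CPM in males. Female 2 was far above the other 5 libraries, and the males spanned under 1 CPM inside the female range. Kit is also made by melanocytes, whose markers summed to 2.58 to 3.12 CPM in females and 2.37 to 3.22 CPM in males. Of these 6 markers Mlana was at 0 in 4 libraries and Tyr, at 1.12 to 1.99 CPM, was the highest. Their part in the Kit level was not tested.

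The deposited transcripts split Kit into coding forms and forms with a retained intron. Kit-208, annotated as a retained intron, took 123 reads in female 1 and 280 in male 1, or 19.2% and 43.8% of Kit reads there, and 0 in the other 4 libraries. The coding transcripts Kit-201 and Kit-204 alone gave 6.68, 16.3 and 5.93 CPM in females and 4.66, 9.13 and 8.73 CPM in males. On this measure male 1, not female 3, was the lowest library. Inside their shared length the coding forms differ by 12 bases at the end of exon 9, at chr5:75639147-75639158 on the plus strand of GRCm38, which lengthen the part of the receptor just outside the membrane. Kit-204 also has 39 more bases at its annotated 5′ end, so reads were not assigned by the 12 bases alone. The stretch is shown because this choice defines the 2 well-studied receptor isoforms, with the bases present in Kit-201 alone in capitals and 24 bases on each side.
Kit-201: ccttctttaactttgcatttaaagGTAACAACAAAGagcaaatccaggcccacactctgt
Kit-204: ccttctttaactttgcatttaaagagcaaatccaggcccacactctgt

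The transcript with the insert, Kit-201, was assigned 39.6%, 37.2% and 20.3% of the reads of both coding forms in females and 52.6%, 43.4% and 24.4% in males. Kit-204 was assigned more reads than Kit-201 in 5 of 6 libraries, male 1 being the exception. These shares cover whole transcripts and are not a measure of the insert by itself. Means were 32.4% ± 10.5 in females and 40.1% ± 14.4 in males (SD, n = 3 each), with overlapping groups and an exact permutation p of 0.4, two-sided.

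**Figure D3:**
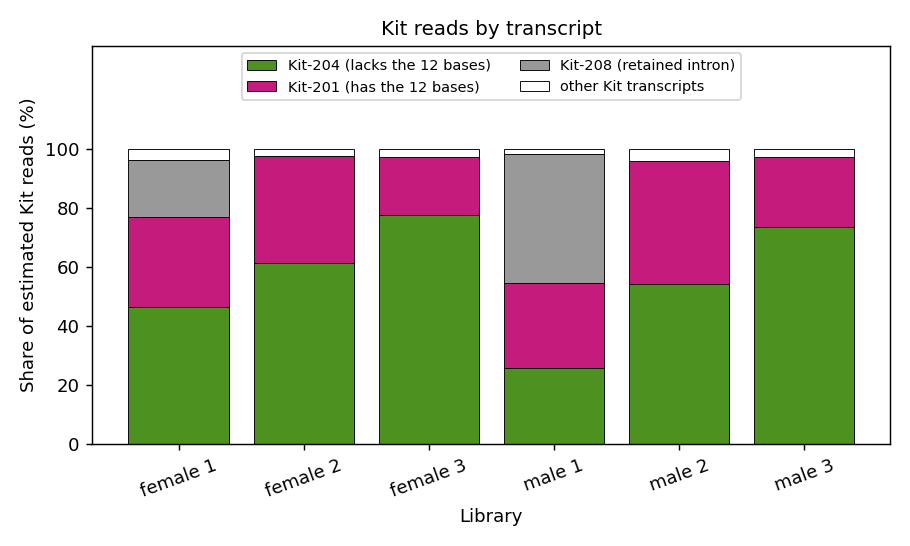
Share of Kit reads assigned to each Kit transcript, in percent, in each of the 6 libraries. The retained-intron transcript Kit-208 takes 19.2% in female 1 and 43.8% in male 1 and nothing in the other 4 libraries.

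Kitl, the gene of stem cell factor, was the most even of the 10 genes, with a ratio of 1.22 between its highest and lowest library. It had 104.9, 105.1 and 112.5 CPM in females and 94.7, 92.5 and 100.6 CPM in males. Every female library lay above every male library, as was the case for 9.65% of all 19129 genes tested. By TPM the groups overlapped, at 43.6, 51.1 and 52.7 in females and 41.2, 45.2 and 53.7 in males. Per length, the ligand was 9.58 to 25.8 times its receptor within a library, counting all Kit transcripts. In male 1, where this ratio was 12.0, Kit-208 had 1.92 TPM against 0.669 for Kit-201 and 0.601 for Kit-204. The ratio to the coding Kit transcripts alone was higher in every library.

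Kitl RNA comes in a long form, Kitl-202, and a form that lacks exon 6, Kitl-201. Exon 6 encodes the main site at which the growth factor is cut from the cell surface, so the short form gives a ligand that mostly stays on the membrane. The 84 bases of this exon, at chr10:100080857-100080940 on the plus strand of GRCm38, are shown in capitals with 24 bases on each side, since they separate the forms.
Kitl-202: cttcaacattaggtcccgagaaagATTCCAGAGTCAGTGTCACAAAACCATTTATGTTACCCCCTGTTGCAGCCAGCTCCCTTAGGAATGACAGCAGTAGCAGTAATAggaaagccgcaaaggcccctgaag
Kitl-201: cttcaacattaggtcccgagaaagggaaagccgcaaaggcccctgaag

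The form with exon 6 took 95.9% to 98.2% of Kitl reads. Kitl-201 took 1.55%, 2.25% and 1.92% in females and 2.84%, 3.55% and 3.58% in males, although Kitl as a whole had the higher CPM in every female library. By TPM, which allows for the shorter length of Kitl-201, its share of both forms was 6.24%, 8.25% and 7.12% in females and 10.2%, 12.6% and 12.2% in males. The means were 7.21% ± 1.01 and 11.7% ± 1.26 (SD, n = 3 each), and the groups did not overlap. The exact permutation p was 0.1, two-sided, which is the smallest that the 20 splits of 3 against 3 can give. This share was singled out after its values were seen. There were 16 member transcripts with a mean of at least 20 reads that did not take all reads of their gene. Of these, 2 had shares that did not overlap between the sexes. They were the Kitl pair, whose shares nearly mirror each other. The portion of such transcripts in the whole series was not computed, so this count has no background. The annotated ends of these transcripts also differ, with lengths of 1260 bases for Kitl-201 and 5648 for Kitl-202, so reads were not assigned by exon 6 alone.

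Hdc encodes histidine decarboxylase, which makes histamine in mast cells and basophils and can be induced in neutrophils and macrophages. It had 112.8, 72.6 and 68.1 CPM in females and 80.4, 66.8 and 42.9 CPM in males. Female 1, the library with the least protease RNA, had the most Hdc, and male 3 the least, with the sexes overlapping. The ratio of Hdc to Cma1 by TPM ran from 0.774 in male 3 to 3.88 in female 1, a wider range than that of any protease to Cma1. The coding transcript Hdc-201 carried 86.1% to 95.4% of Hdc reads. Of the 8 neutrophil markers, 4 were also highest in female 1 and 7 lowest in male 3. Their summed level was 955 to 1708 CPM in females and 690.4 to 1350 CPM in males. The other females differed from Hdc in this: the sum was 1679 CPM in female 3, with Hdc at 68.1 CPM. In female 2 it was 955 CPM, with Hdc at 72.6 CPM. The share of all genes with the same highest or lowest library was not computed. The part of neutrophils in the Hdc level was not tested.

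Across the 6 libraries, Cma1, Mcpt4, Tpsb2 and Cpa3 had nearly parallel profiles. In their 6 pairs Pearson's r of log2 CPM was 0.906 to 0.976 and Spearman's rho 0.886 to 1.0. All pairs of the 10 genes make 45 relations, tested by exact permutation over 720 pairings and adjusted over the 45. No pair passed an adjusted p of 0.05, the smallest being 0.0625 for Pearson and 0.125 for Spearman, and 8 pairs had an unadjusted Pearson p under 0.05. The 6 protease pairs were all among these 8. Mcpt4 and Tpsb2 ranked the libraries identically, with r = 0.976 (exact permutation p = 0.00139, the smallest that 720 pairings can give, adjusted 0.0625) and rho = 1.0 (p = 0.00278, adjusted 0.125). Cma1 and Mcpt4 had r = 0.974 (exact permutation p = 0.00556, adjusted 0.075) and rho = 0.943 (p = 0.0167, adjusted 0.188). The lowest of the 6 pairs was Tpsb2 with Cpa3, at r = 0.906 (exact permutation p = 0.0264, adjusted 0.170) and rho = 0.886 (p = 0.0333, adjusted 0.250).

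The 6 protease pairs had a high r without the most distant libraries and within the sexes too. Leaving out the 2 libraries farthest from the median of the first gene gave r of 0.913 to 0.995 for the 6 pairs. Within sexes, on values centred by sex, r was 0.957 to 0.989. Without female 2 and male 1, the libraries with muscle transcripts, it was 0.967 to 0.999. The within-sex permutation has 36 pairings, so its p could not go below 0.0278, and after adjustment the smallest was 0.125.

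Over all 6 libraries Tpsab1 followed the other proteases less closely, with r of 0.463 to 0.584, on 54 to 89 reads. Within sexes r was 0.391 to 0.526, and without female 2 and male 1 it was 0.570 to 0.758. Without the 2 libraries farthest from the median of the first gene, r was 0.983 with Cma1, 0.907 with Mcpt4 and 0.881 with Tpsb2. For Cpa3, where Tpsab1 was that first gene, it was 0.371. The IgE receptor subunits had r of 0.471 to 0.830 with the 4 proteases. The highest was Cpa3 with Fcer1a, at r = 0.830 (exact permutation p = 0.0347, adjusted 0.195) and rho = 0.771 (p = 0.103, adjusted 0.289), with 0.948 without female 1 and female 2 and 0.819 within sexes. Fcer1a and Ms4a2 had r = 0.883 with each other (exact permutation p = 0.0208, adjusted 0.156) and rho = 0.829 (p = 0.0583, adjusted 0.289). Their r was 0.512 without male 1 and male 2, so it rested on those libraries, although it was 0.894 within sexes. Without female 2 and male 1, the subunits had r of 0.69 to 0.94 with the 4 proteases.

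Kit had r of 0.520 to 0.677 with the 4 proteases. With the coding transcripts Kit-201 and Kit-204 alone, a measure chosen after the values were seen, r was 0.631 to 0.809. For Cpa3 it went from 0.600 to 0.809 (exact permutation p = 0.0347, adjusted 0.139 over the 4 relations computed this way) and rho was 0.829 (p = 0.0583), with 0.918 within sexes. Hdc stood apart from the granule proteases, with r of -0.694 to 0.117 with the other 9 genes. Its lowest value was with Mcpt4, r = -0.694 (exact permutation p = 0.142, adjusted 0.430) and rho = -0.600 (p = 0.242, adjusted 0.453), and r was -0.435 without female 1 and male 2 and -0.589 within sexes. Kitl had r of -0.598 to 0.117 with the others on this scale, where no pair with Hdc or Kitl had an unadjusted exact permutation p under 0.05. The direction for Kitl changed with the scale. On log2(TPM + 1), Kitl had r of 0.449 with Cma1, 0.431 with Mcpt4, 0.264 with Tpsb2 and 0.597 with Cpa3, where log2 CPM gave -0.360, -0.460, -0.598 and -0.224. With Hdc it was -0.663 in place of 0.117, so no direction is read for Kitl. For Hdc with the other genes the range on log2(TPM + 1) was -0.673 to 0.230, and for Kit with the 4 proteases 0.334 to 0.491. Without female 2 and male 1, on 4 libraries, Kitl had r of -0.951 to 0.231 with the others, Hdc -0.799 to 0.231, and Kit 0.378 to 0.597 with the 4 proteases. On the same libraries, Kit-201 and Kit-204 alone had r of 0.814 to 0.929 with the 4 proteases.

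**Figure D4:**
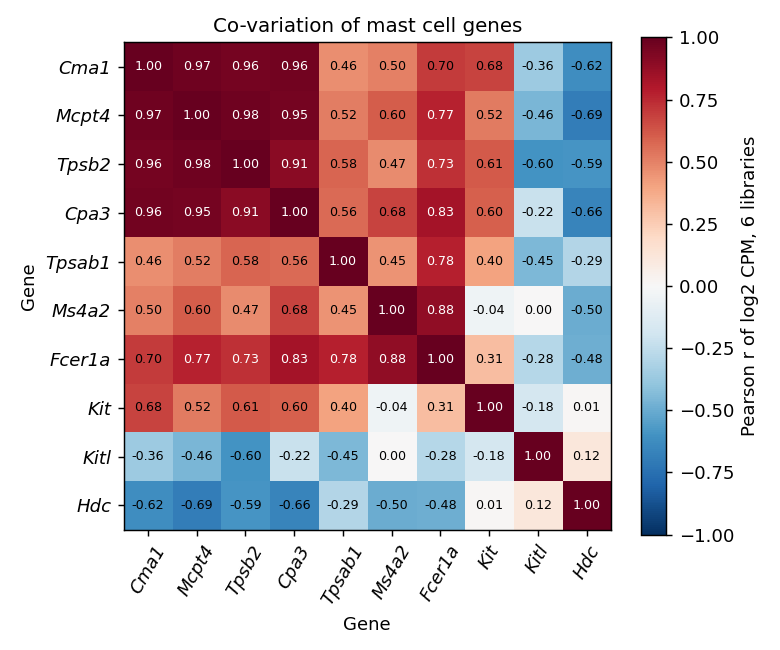
Pearson's r of log2 CPM over the 6 libraries for every pair of the 10 genes. The block of Cma1, Mcpt4, Tpsb2 and Cpa3 has r of 0.906 to 0.976, and the rows of Hdc and Kitl have r of at most 0.117 with the other genes on this scale, while several r of Kitl change sign on log2(TPM + 1).

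Genes outside the 10 were ranked by likeness to the mean standardised profile of the 5 proteases, over 14729 genes with a mean of at least 1 CPM. The 8 most alike were Vmn2r79 (r = 0.990), Dusp3 (0.987), Copg2 (0.979), Acss1 (0.972), Tspyl1 (0.972), Bex6 (0.969), Megf6 (0.969) and Abi3bp (0.966), each over 6 libraries. Pearson's r takes no account of the size of the changes. Tspyl1 ran from 51.6 to 55.3 CPM and Dusp3 from 130.9 to 149.3 CPM, against 11.2 to 27.1 CPM for Cma1. Megf6 ran more widely, from 3.72 to 6.24 CPM. In all, 64 of the 14729 genes reached r = 0.9 and 136 were at -0.9 or lower. Of the 5 lists of other mast cell genes, 32 genes could be ranked, with r of -0.843 to 0.965 and a median of 0.16, 23 above 0 and 9 below. Only 3 of these 32 reached 0.9, and they are named after their values were seen: F2rl1, the receptor cleaved by tryptase (0.965), Slc18a2, which loads histamine and serotonin into granules (0.945), and Tph1, which starts serotonin synthesis (0.943). Other granule genes ran the opposite way or less closely, with Cd63 at -0.843, Srgn at -0.775 and Ndst2 at 0.556. The other ranked targets were Hrh1 at 0.037, Hnmt at -0.011 and Hrh2 at -0.372. Among 13 signalling genes r ran from -0.475 for Il1rl1 to 0.885 for Mrgprb1, a receptor gene of the family through which peptides activate mast cells, with a median of 0.41. The dendritic cell marker Clec10a had r = 0.936. The other dendritic cell markers were lower, with Flt3 at 0.61, Clec9a at 0.61, Cd209a at 0.58, Zbtb46 at 0.35 and Xcr1 at 0.021.

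No member was called between the sexes. With p-values adjusted by Benjamini-Hochberg over 19129 genes, the edgeR quasi-likelihood fit called 0 of 10 members at 0.05, beside 0.110% of all genes (21 genes). DESeq2 also called 0 of the 10, beside 5.28% of all genes that it gave an adjusted p. All 10 had passed the filter on low counts. Adjusted p-values ran from 0.324 to 0.921. At an unadjusted p under 0.05 there was 1 member, Kitl, against 14.6% of all genes. Kitl was also the 1 member with every female library above every male library, and 0 had the reverse order, beside 11.5% of all genes. The fitted log2 difference, female minus male, was below 0 for 7 members and above 0 for 3, with a median of -0.21 beside 0.016 for all genes. Without female 2 and male 1, the libraries with muscle transcripts, the members' median was -0.64, and again 0 were called, beside 20 of 19125 genes. The median of all genes in that fit was not computed. Cma1 was then at -0.80, Mcpt4 at -0.91, Tpsb2 at -0.89 (edgeR adjusted p = 0.0883), Tpsab1 at -0.62, Cpa3 at -0.89, Fcer1a at -0.65, Ms4a2 at -0.33 and Hdc at 0.72, while Kitl was at 0.17. Each of the 5 Schwann cell markers was lower in every female library than in every male library, and the part of cell makeup in the members' differences was not tested.

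The proteases had negative differences with wide intervals. Cma1 was at 17.7 ± 8.33 CPM in the female libraries and 20.6 ± 3.63 CPM in the male libraries (SD, n = 3 each), a log2 difference of -0.22 (SE 0.33, edgeR adjusted p = 0.810). Without female 1 it was 0.022. Mcpt4 had -0.39 (SE 0.31), Tpsb2 -0.40 (SE 0.27), Tpsab1 -0.29 (SE 0.31) and Cpa3 -0.19 (SE 0.41), with Cpa3 at 0.071 without female 1. With 1 library left out, Mcpt4 ranged from -0.76 (without female 2) to -0.16 (without female 1) and Tpsb2 from -0.77 to -0.23 (the same libraries). Tpsab1 ranged from -0.54 (without male 1) to -0.087 (without male 2). The 95% interval of Tpsb2 was -1.06 to 0.25 and that of Cpa3 -1.19 to 0.81, both spanning 0. Fcer1a had -0.26 (SE 0.30) and Ms4a2 -0.091 (SE 0.31). Their values changed sign without male 2, to 0.071 and 0.20, and that of Ms4a2 also without female 1, to 0.058.

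Kit had a log2 difference of 0.22 (SE 0.35, edgeR adjusted p = 0.823), which rested on female 2: without that library it was -0.29. Hdc had 84.5 ± 24.6 CPM in females and 63.4 ± 19.0 CPM in males, a difference of 0.41 (SE 0.29, edgeR adjusted p = 0.568) with a 95% interval of -0.28 to 1.11. It was 0.15 without female 1, 0.20 without male 3 and 0.63 without male 1. Kitl had the narrowest interval. It stood at 107.5 ± 4.35 CPM in the female libraries and 95.9 ± 4.17 CPM in the male libraries, a difference of 0.16 (SE 0.068, unadjusted p = 0.0419, edgeR adjusted p = 0.324). With an offset for gene length in each library the Kitl difference was 0.066, under the value on reads alone.

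**Figure D5:**
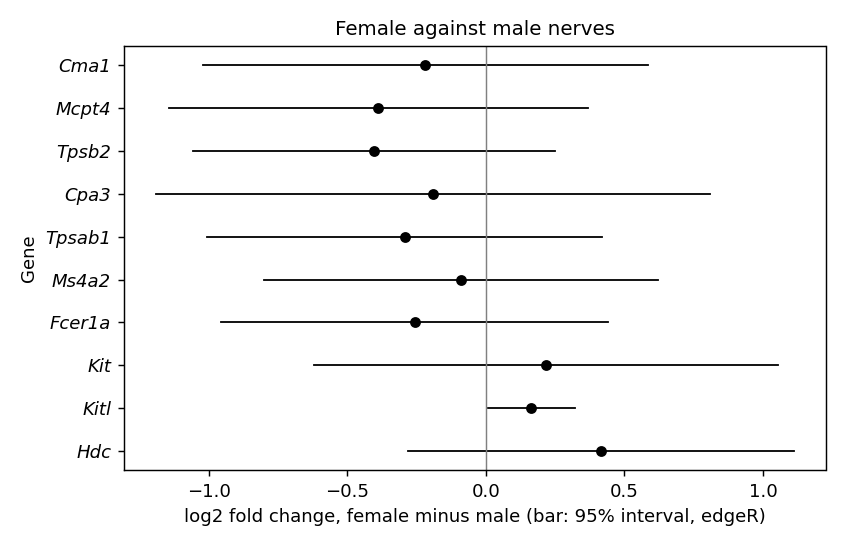
Fitted log2 difference, female minus male, of each of the 10 genes with its 95% interval from edgeR. The interval of Kitl is the narrowest and lies just above 0, and those of the other 9 genes cross 0.

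Other genes of mast cell biology were read from 5 lists of 43 genes in all, of which 36 passed the filter on low counts and 0 were called. At an unadjusted p under 0.05 there were 6 (16.7%), near the 14.6% of all genes, and the median log2 difference was 0.11. All females were above all males for 4 of the 36 (11.1%, beside 9.65% of all genes): Alox5ap, Hpgds, Lat2 and Il1rl1.

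Of the granule genes, 7 of 11 were tested, and their median difference was -0.026. Srgn, whose serglycin core holds proteases in the granule but which other leukocytes make too, had 452.8 ± 56.2 CPM in females and 402.8 ± 83.5 CPM in males. Cd63, a membrane protein of granules and lysosomes, was the most abundant, at 512.4 ± 30.6 and 471.0 ± 32.5 CPM. Ndst2, which sulfates the heparin of granules, had 62.9 ± 7.29 and 59.5 ± 8.90 CPM. Tph1 had 1.71 ± 0.461 and 1.92 ± 0.564 CPM, and Slc18a2 1.08 ± 0.332 and 1.37 ± 0.195 CPM. In the lipid mediator list all 6 genes were tested and had differences above 0, with a median of 0.36. Alox5ap, which presents arachidonic acid to 5-lipoxygenase, had 176.9 ± 12.3 CPM in females and 144.8 ± 13.6 CPM in males, 0.29 (SE 0.092, edgeR adjusted p = 0.229). Hpgds, the prostaglandin D synthase of mast cells and some macrophages, had 20.8 ± 2.75 and 13.6 ± 3.70 CPM, 0.61 (SE 0.21, edgeR adjusted p = 0.267). The other lipid genes overlapped between the sexes: the cyclooxygenases Ptgs2, at 36.3 ± 12.2 and 25.4 ± 8.70 CPM, and Ptgs1, at 18.1 ± 2.61 and 15.6 ± 0.961 CPM, and the leukotriene enzymes Alox5, at 23.9 ± 5.41 and 22.6 ± 4.42 CPM, and Ltc4s, at 9.76 ± 3.18 and 7.26 ± 2.32 CPM.

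The signalling list, 14 of 14 tested, had a median of 0.14. Syk, the kinase that the IgE receptor recruits, had 173.0 ± 20.7 CPM in females and 149.2 ± 22.1 CPM in the male libraries, and Lyn, which acts before it, 179.3 ± 17.9 and 159.8 ± 14.1 CPM. Csf2rb, a shared cytokine receptor chain, had 189.1 ± 26.5 and 173.1 ± 16.2 CPM, and Plcg2, a phospholipase of immune receptor signalling, 74.0 ± 12.8 and 64.8 ± 12.9 CPM. Il1rl1, the receptor for interleukin-33, had 74.2 ± 28.3 and 46.0 ± 5.80 CPM, 0.69 (SE 0.26, edgeR adjusted p = 0.313). The transcription factors, 5 of 5 tested, had a median of -0.0063, with Spi1 at 107.8 ± 6.71 and 92.8 ± 12.6 CPM, Mitf at 39.6 ± 3.25 and 33.5 ± 3.12 CPM and Tal1 at 5.11 ± 1.06 and 5.13 ± 0.492 CPM. Of the genes on which mast cell products act or that degrade them, 4 of 7 were tested, with a median of -0.059. The histamine receptor Hrh2 had 18.6 ± 3.83 CPM in females and 13.7 ± 2.42 CPM in the male libraries, and Hrh1 7.99 ± 1.03 and 9.46 ± 0.375 CPM. Hnmt, which inactivates histamine, was even, at 6.84 ± 0.347 and 6.76 ± 0.477 CPM, and F2rl1 had 2.24 ± 0.215 and 2.46 ± 0.277 CPM.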

How the data were processed

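Each library has 1 deposited transcript table. Its columns hold, per the file headers, Salmon's estimated counts and TPM for 140789 transcripts. The estimated counts are as deposited, with no scaling by the authors, and the deposited TPM values allow for effective length. Trimmomatic 0.39, Salmon 1.5.2 and MultiQC 1.9 appear in the submitters' processing notes. Genome build, annotation and strand setting were not given in the sources used here. Salmon divides reads of similar transcripts by estimate.

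Estimated counts were summed over 54309 genes and rounded. The edgeR (4.0.16) filterByExpr step kept 19129 genes, scaled by TMM, with factors of 0.968 to 1.02. Female was compared with male by the edgeR quasi-likelihood test with robust estimation, adjusted by Benjamini-Hochberg at 0.05, and every adjusted p of a log2 difference is from it. DESeq2 (1.42.0) and limma (3.58.1) were alternatives. Correlations used exact permutation computed with NumPy 2.4.6, with ranks from SciPy 1.17.1. The fit was tested on simulated data. The TPM pseudocount of 1 applies to alternatives only. Same-sex libraries differed beyond counting noise, with a chi-square per degree of freedom of 26.4 to 91.2. The members, gene lists and tests were chosen with earlier results of these data known. The text names all 10 members, up to 6 genes per list by mean CPM with a mean of at least 1, and the 8 genes most alike the proteases. Genes named beyond that were chosen after their values were seen: Gata1, Lat2, Mrgprb1, Clec10a, the scarce proteases and single melanocyte markers. The basophil markers and the other dendritic cell markers were also named after their values were seen. The genes named as most like Hdc or Kitl were added in the same way. Isoform sequences came from GENCODE transcripts on GRCm38, in which Kit-201, Kit-204, Kitl-201 and Kitl-202 had the same lengths as in the deposited tables.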

Additional observations from a re-analysis of the deposited data

How the results depend on the processing

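In all 17 alternative fits, 0 of the 10 mast cell genes were called, and 162 of 169 values of a member's log2 difference kept their sign (Ms4a2 was left out by the filter at a mean of 1 CPM). The median difference of the members was -0.21, and -0.39 to 0.040 when 1 library was left out. The 7 changes of sign all followed from left-out libraries. Without female 1, Cma1 was at 0.022, Cpa3 at 0.071 and Ms4a2 at 0.058. Without male 2, Ms4a2 was at 0.20 and Fcer1a at 0.071. Kit was at -0.29 without female 2 and at -0.32 without female 2 and male 1 together. With 1 library left out, Cma1 ranged from -0.67 to 0.022, Cpa3 from -0.65 to 0.071, Kit from -0.29 to 0.49, Ms4a2 from -0.32 to 0.20, Fcer1a from -0.52 to 0.071, Hdc from 0.15 to 0.63 and Kitl from 0.13 to 0.20. The cause was not tested. No pair of members passed an adjusted p of 0.05 on log2 CPM, on log2(TPM + 1) or within sexes. Kit with Cpa3 went from r = 0.60 to 0.81 with Kit-201 and Kit-204 alone, chosen after seeing the data.

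The count of all genes called moved more. It was 21, and 191 with no low-count filter, 871 with DESeq2, 10 with limma on log2(TPM + 1), and 4 (without male 2) to 205 (without female 3) with 1 library left out. With the replicate block it was 3. Same-numbered libraries had correlations of deviations of -0.139, -0.257 and 0.022, and not every library correlated best with its own number. With 3 libraries per sex, these values cannot settle whether the numbers pair the libraries. Tpsab1 and Ms4a2, at 49 to 89 reads, were the most limited by depth.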

Other observations

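Likeness was also ranked for Hdc and for Kitl, a choice made after the values were seen. The 8 genes most like Hdc over the 6 libraries were Rrs1 (r = 0.995), Nop2 and Mrpl2 (both 0.992), Fastkd1 (0.990), Clns1a (0.987), Ddx39b (0.983), Tm2d1 (0.9825) and Mrpl54 (0.981). In all, 205 of 14729 genes reached 0.9 with Hdc. Rrs1 varied far less than Hdc, from 38.4 to 45.6 CPM against 42.9 to 112.8 CPM. Akr1b8 (0.984) and Zmym5 (0.982) were the most like Kitl, with 92 genes at 0.9 or above. The adipocyte markers were highest in female 2 for 5 of 5 genes, and summed to 236.2 to 779.3 CPM in females and 302.7 to 475.5 CPM in males. Kit, Cma1 and Cpa3 were highest in female 2 as well. Mcpt4, Tpsb2, Tpsab1, Fcer1a and Ms4a2 were highest in male 2, where the adipocyte sum was 302.7 CPM, the lowest of the males. Kitl was highest in female 3 and Hdc in female 1. The retained-intron transcript Hdc-204 took 3.72% to 12.6% of Hdc reads.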
